A study of Homo sapiens with 8 samples.

Results

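The aryl hydrocarbon receptor (AHR), its partner ARNT, its repressor AHRR and 4 genes that the receptor is known to switch on, CYP1A1, CYP1A2, CYP1B1 and TIPARP, were followed in A549 cells, an established human lung carcinoma line. The 7 genes were listed by symbol and matched to the array's probes through RefSeq accessions. Of these, 6 were matched, out of 19056 genes named on the array, and AHRR was not matched to any probe. The labels name no allele or transgene in any group. In the EEDS series, cells received the vehicle or 1.25, 5 or 20 μg/mL of EEDS, the ethanol extract of Descurainia sophia seeds, a mixture from which the study isolated helveticoside and other glycosides. In the helveticoside series, cells received the vehicle or 3.75, 15 or 60 nM of pure helveticoside, a cardiac glycoside. The sample labels gave 48 h of exposure and the paper a shorter time. RNA of 3 cultures was pooled for each condition and hybridized to 1 single-dye Agilent 44K array, so each series held 4 arrays and no dose had a replicate array.

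AHR is a transcription factor that waits in the cytoplasm in a complex with the chaperone HSP90 and its co-chaperone p23. A ligand releases it into the nucleus, where it pairs with ARNT and binds the xenobiotic response element. CYP1A1, CYP1A2 and CYP1B1 encode monooxygenases that oxidize aromatic compounds, AHRR competes with AHR for ARNT, and TIPARP, a mono-ADP-ribosyltransferase, dampens the receptor in a feedback loop. CYP1A1 is the usual readout of the pathway in lung epithelium.

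The core of the response element, GCGTG, was looked for on both strands of the 250 bases before the RefSeq start of each gene. The longer form searched, TNGCGTG, contains the core. On the opposite strand the core reads CACGC. Of 35116 such windows of GRCh38.p14, 32.2% held the core and 4.52% held the longer form. The windows of CYP1A1 (chr15:74725529-74725778, minus strand), TIPARP (chr3:156674340-156674589, plus strand) and CYP1A2 (chr15:74748595-74748844, plus strand) are shown for 2 targets with a called dose trend and 1 near its vehicle level at all doses, and that of AHR (chr7:17298402-17298651, plus strand) for the receptor itself. Capitals mark the core on either strand.
CYP1A1: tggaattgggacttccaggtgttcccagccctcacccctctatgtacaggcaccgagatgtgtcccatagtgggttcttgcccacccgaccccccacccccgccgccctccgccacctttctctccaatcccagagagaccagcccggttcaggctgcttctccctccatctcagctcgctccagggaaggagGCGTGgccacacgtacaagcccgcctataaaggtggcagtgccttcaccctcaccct
TIPARP: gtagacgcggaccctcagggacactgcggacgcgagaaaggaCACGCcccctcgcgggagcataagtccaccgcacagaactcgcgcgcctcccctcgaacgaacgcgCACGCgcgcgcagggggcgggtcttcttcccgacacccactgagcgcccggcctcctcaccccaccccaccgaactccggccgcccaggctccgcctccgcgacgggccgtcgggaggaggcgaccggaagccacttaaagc
CYP1A2: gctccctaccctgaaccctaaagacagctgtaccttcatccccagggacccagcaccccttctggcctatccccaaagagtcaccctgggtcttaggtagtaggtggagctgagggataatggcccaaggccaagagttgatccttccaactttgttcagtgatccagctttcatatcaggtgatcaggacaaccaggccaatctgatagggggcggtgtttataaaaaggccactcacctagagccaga
AHR: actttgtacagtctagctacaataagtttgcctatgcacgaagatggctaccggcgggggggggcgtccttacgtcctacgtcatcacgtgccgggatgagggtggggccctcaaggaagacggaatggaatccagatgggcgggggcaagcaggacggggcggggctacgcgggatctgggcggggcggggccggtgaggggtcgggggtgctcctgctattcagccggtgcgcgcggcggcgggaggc
The CYP1A1 window held the core 1 time, with its first base at position -57 from the start. The TIPARP window held it 2 times, at -208 and -142, both on the opposite strand. The windows of AHR, ARNT and CYP1A2 held none, and the AHRR window held 1, at -30, which was also the longer form. No entry for CYP1B1 was in the table used. Given the share of all windows with the core, these matches are a description of the letters, and enhancers farther from the start were not looked at.

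The genes lie at chr7:17298652-17346147 (AHR), chr1:150809713-150876599 (ARNT), chr5:321714-438285 (AHRR), chr15:74719542-74725528 (CYP1A1), chr15:74748845-74756607 (CYP1A2), chr2:38067509-38076151 (CYP1B1) and chr3:156674590-156706770 (TIPARP) in GRCh38.p14. AHR and CYP1B1 had 2 probes each and the others 1. Where there were 2, the probe with the higher mean signal stands for the gene. All probes of AHR, ARNT, CYP1A2, CYP1B1 and TIPARP were well above background on the 8 arrays, by the scanner software's call. CYP1A1 was well above background on 3 arrays.

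Across the arrays, the median spot signal was 182 to 278 and the median local background 27 to 34. The share of probes well above background was 63.3% to 64.9% in the EEDS series and 54.5% to 59.5% in the helveticoside series, so faint transcripts were harder to see in the latter. The vehicle controls of the series differed by over 2-fold in 656 of 12385 genes detected on both, or 5.3%. Series and agent cannot be told apart. As defining markers of the line, 5 of 5 epithelial genes were well above background on every array, while 4 of 7 alveolar type II genes were not well above it on any array. Of 7 markers of blood, endothelial and stromal cells, 3 were well above background on every array and 3 on none. The scanner software's own error was 10.0% of the signal for the bright genes, or about 0.20 on the log2 scale for a ratio of 2 arrays. It covers neither the cultures nor the labelling.

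TIPARP rose with both agents, by the test of dose trends given below. Its log2 level was 11.79 with the vehicle of the EEDS series and 12.30, 13.31 and 14.84 at 1.25, 5 and 20 μg/mL. In the helveticoside series it was 11.47 with the vehicle and 11.63, 12.67 and 13.84 at 3.75, 15 and 60 nM. Every step up in dose thus went with a higher normalized level in both series. The scanner's processed signal went from 3090 to 41500 with EEDS and from 2340 to 15300 with helveticoside. Before normalization it was lower at 3.75 nM, at 2040, than with the vehicle. The log2 ratio at 3.75 nM ranged from -0.16 to 0.22 over the alternatives, so that step is not settled. At the top doses the levels were 8.30-fold and 5.15-fold those of the vehicle controls, which placed TIPARP at rank 164 and rank 307 among 19046 genes ordered from the largest rise. At the middle doses it was 2.87-fold and 2.29-fold higher. At the lowest doses the log2 ratios were 0.51 and 0.15, the latter inside the scanner error of 0.20. The step from the middle to the top dose added 1.53 with EEDS and 1.17 with helveticoside on the log2 scale. In bulk RNA, fewer cells of a kind and less RNA per cell cannot be told apart, here and below.

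CYP1A1 gave a higher signal at the upper doses of the extract, from a vehicle signal not well above background. Its trend with EEDS passed the test on measured values, and the call was lost with values raised to a common detection floor (limma adjusted p = 0.220). Its processed signal was 5.96 with the vehicle, 11.0 at 1.25 μg/mL, 36.9 at 5 μg/mL and 426 at 20 μg/mL. The vehicle and the lowest dose were not well above background, and the other doses were. With helveticoside the signal was 43.2 with the vehicle, 31.9 at 3.75 nM, 50.6 at 15 nM and 80.5 at 60 nM, and 60 nM was the only dose of that series called well above background. The scanner's error of the vehicle signal was 94.6% in the EEDS series and 36.1% in the helveticoside series. Where a control was not well above background, its level was replaced by the higher of its own value and the lowest signal well above background on that array, and the ratio is written as "at least". On that footing 5 μg/mL of EEDS gave CYP1A1 at least 1.78-fold over the vehicle, and 20 μg/mL gave at least 14.5-fold, a bound of 3.86 on the log2 scale. With the signal as scanned, from which no background was subtracted, these bounds were 0.30 and 1.98 on the log2 scale. At 60 nM helveticoside it was at least 1.70-fold higher, or 0.77 on the log2 scale, and the bound was 0.35 with the signal as scanned. Over all alternatives, the other series' vehicle control among them, the log2 value ran from 0.35 to 1.77 at 60 nM helveticoside. At 20 μg/mL EEDS it ran from 1.98 to 5.22, the latter as measured with no bound. No fold is given for the remaining doses, where neither array of the ratio was well above background. The log2 levels as measured, with no bound, were 3.20, 3.62, 5.39 and 8.41 in the EEDS series, and 5.11, 5.24, 5.70 and 6.32 in the helveticoside series. The measured vehicle levels of the series lay 1.91 apart, a gap made of signals that were not well above background.

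CYP1B1, which also turns estradiol into its catechol form, followed neither of these. In the EEDS series its log2 level was 10.25 with the vehicle, 10.90 at 1.25 μg/mL, 10.26 at 5 μg/mL and 10.59 at 20 μg/mL. In the helveticoside series it was 10.83 with the vehicle, 11.69 at 3.75 nM, 10.74 at 15 nM and 9.57 at 60 nM. The highest level of each series was at its lowest dose, with log2 ratios of 0.65 and 0.86. At the top doses the gene was 1.27-fold higher with EEDS and 2.39-fold lower with helveticoside, so the log2 ratios lay 1.60 apart. The vehicle control of the helveticoside series stood 0.58 above that of the EEDS series. Against the other series' vehicle control, the log2 ratio was -0.24 with EEDS and -0.68 with helveticoside, so neither was above 0. The second probe gave log2 ratios of 0.76, 0.24 and 0.65 with EEDS and of 0.74, -0.05 and -1.14 with helveticoside, so both probes had the same order of doses in each series. Of all 19046 genes, dim ones included, 1856 (9.74%) were over 2-fold lower at 60 nM helveticoside. Among these, 18 (0.0945% of all genes) had a ratio above 0 at 20 μg/mL EEDS, and CYP1B1 was 1 of them. This class has the shape of CYP1B1's own values, so the count is a description and no test.

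CYP1A2, whose protein is chiefly made in the liver, stayed close to its vehicle level. Its log2 levels were 8.06, 7.72, 7.91 and 7.83 from the vehicle to the top dose of EEDS, and 8.03, 8.09, 8.07 and 7.92 for helveticoside. All 8 levels thus lay between 7.72 and 8.09. The lowest was at 1.25 μg/mL EEDS, at a log2 ratio of -0.34, and the ratios at the top doses were -0.23 and -0.11. CYP1A1 and CYP1A2 lie side by side on chromosome 15, in opposite orientation.

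The receptor gene itself stood apart from its vehicle level at the top doses. The log2 level of AHR was 11.16 with the vehicle and 11.07, 11.30 and 12.14 at the rising doses of EEDS. With helveticoside it was 10.87, 10.66, 10.89 and 11.91. At the low and middle doses the log2 ratios lay between -0.21 and 0.15, about the size of the scanner error. The last step added 0.84 with EEDS and 1.03 with helveticoside. At the top doses AHR was 1.98-fold and 2.06-fold higher, so a limit of 2-fold ran between the values although they differed by 0.06 on the log2 scale. The second AHR probe gave larger ratios, 1.66 at 20 μg/mL EEDS and 1.35 at 60 nM helveticoside, and 0.27, 0.42, 0.18 and 0.30 at the lower doses.

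ARNT, the obligate partner, was higher than its vehicle control at all doses, by less than 2-fold. Its log2 levels were 7.61, 7.80, 7.72 and 8.46 in the EEDS series and 6.68, 7.17, 7.04 and 7.41 in the helveticoside series. The top doses gave 1.79-fold and 1.66-fold. The vehicle controls differed by 0.93, more than the ratio at either top dose, and the levels of the series did not overlap. Against the other series' vehicle control, the log2 ratio of ARNT was 1.77 at 20 μg/mL EEDS and -0.20 at 60 nM helveticoside. The direction with helveticoside thus rests on the vehicle array of its own series.

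**Figure D1:**
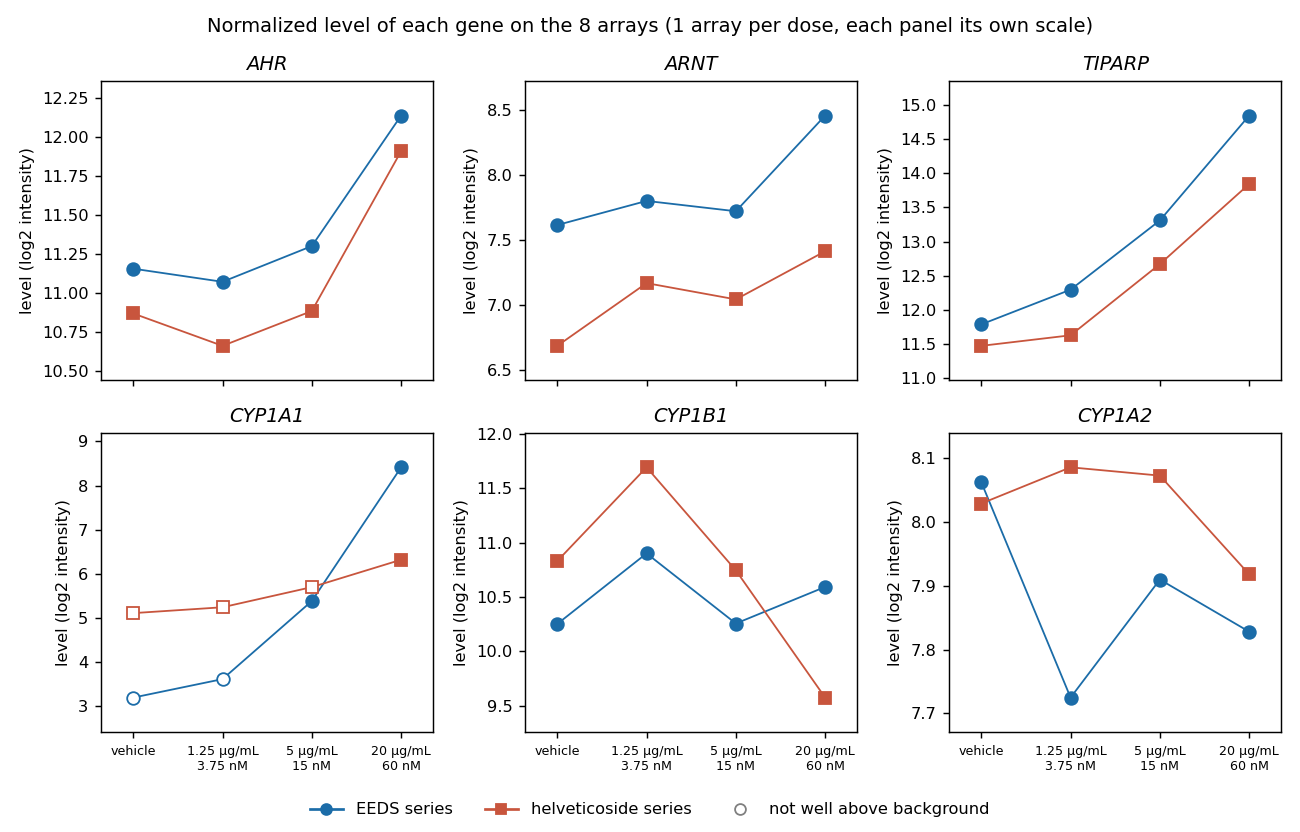
Log2 quantile-normalized level (vertical axis, intensity units) of each of the 6 genes on the 4 arrays of the EEDS series (circles) and of the helveticoside series (squares), by dose (horizontal axis), with 1 array per point and so no error bar. TIPARP is higher at every step in both series and AHR mainly at the last, CYP1A1 climbs with EEDS from values not well above background (open symbols), and CYP1B1 is lowest at 60 nM helveticoside.

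Counted over all 6 genes, none was over 2-fold higher or lower at the lowest dose of either agent. Of all genes, dim ones included, 3.15% were over 2-fold higher and 2.48% lower there with EEDS, and 1.24% and 1.12% with helveticoside. At the middle doses TIPARP was the only 1 over 2-fold higher with either agent, beside 5.93% of all genes higher and 6.64% lower with EEDS, and 4.24% and 5.42% with helveticoside. At 20 μg/mL EEDS, 2 of 6 were over 2-fold higher (CYP1A1 and TIPARP) and none lower, beside 11.4% of all genes higher and 12.4% lower. At 60 nM helveticoside, 2 of 6 were over 2-fold higher (AHR and TIPARP) and 1 lower (CYP1B1), beside 7.91% and 9.74%. TIPARP was the gene over 2-fold higher at both top doses, as were 6.46% of all genes. The median log2 ratio of the 6 genes, with CYP1A1 at its measured value, was 0.91 at 20 μg/mL EEDS and 0.89 at 60 nM helveticoside. Over all genes these medians were 0.02 and -0.0039. The counts describe 6 genes within a response that took in many others.

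**Figure D2:**
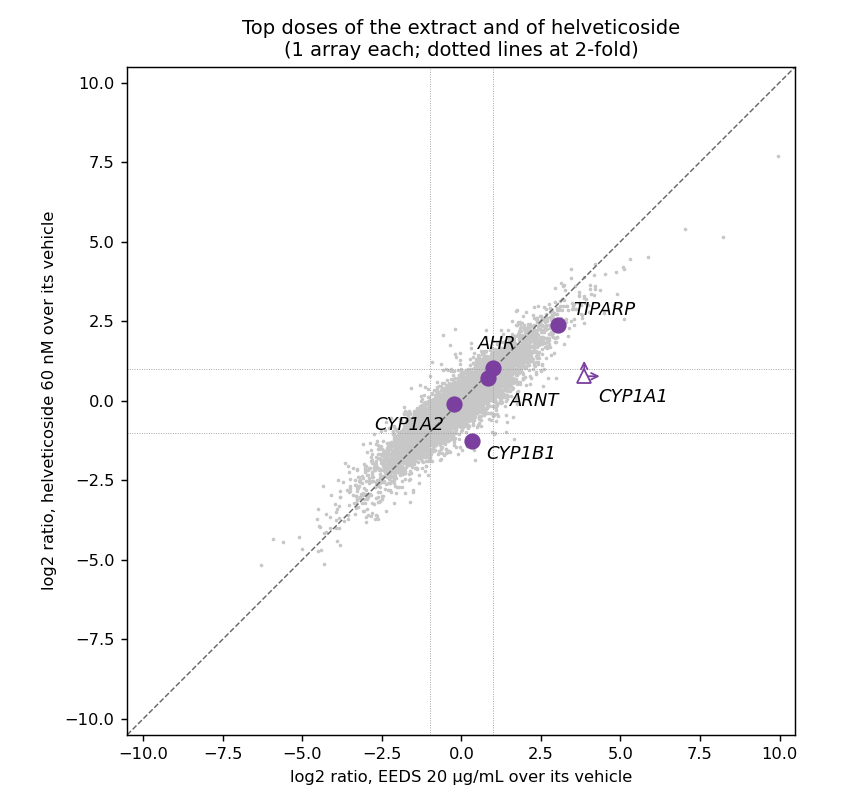
Log2 ratio over the vehicle control at 60 nM helveticoside (vertical axis) against that at 20 μg/mL EEDS (horizontal axis), for the 11818 genes well above background on the 4 arrays used (grey points) and for the 6 genes (purple), with CYP1A1 at its lower bounds (open triangle, arrows toward larger values). The dashed line marks equal ratios and the dotted lines 2-fold. AHR, ARNT, CYP1A2 and TIPARP sit within the grey band, and CYP1A1 (3.86 and 0.77) and CYP1B1 (0.34 and -1.26) lie below the dashed line.

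Dose trends were tested by limma over the 8 arrays, with a slope on the dose step (vehicle 0, top dose 3) for each series and Benjamini-Hochberg adjustment over 19046 genes. The arrays' scatter about the lines stands in for replicate error. Of the 6 genes, 2 rose with EEDS, CYP1A1 and TIPARP, beside 7.27% of all genes called rising and 7.85% falling. With helveticoside, 1 rose, TIPARP, beside 5.48% rising and 5.8% falling. TIPARP gained 1.02 ± 0.15 (SE) log2 units a step with EEDS (limma adjusted p = 0.0178) and 0.81 ± 0.15 with helveticoside (adjusted p = 0.0305). CYP1A1 gained 1.74 ± 0.26 with EEDS (limma adjusted p = 0.0190), on measured values that include those not well above background. With values raised to 1 common detection floor for all arrays, its EEDS slope was 0.74 and the call was lost (limma adjusted p = 0.220). Its slope with helveticoside was 0.41 ± 0.26 (adjusted p = 0.387).

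The slopes of the other genes did not pass the test. For AHR they were 0.32 ± 0.15 with EEDS (limma adjusted p = 0.215) and 0.34 ± 0.15 with helveticoside (adjusted p = 0.217). For ARNT they were 0.24 ± 0.10 and 0.21 ± 0.10, with adjusted p of 0.154 and 0.241. For CYP1B1 the slope was 0.04 ± 0.23 with EEDS and -0.47 ± 0.23 with helveticoside (adjusted p = 0.991 and 0.249). A straight line describes AHR and CYP1B1 poorly, since AHR differed mainly at the last step and CYP1B1 was highest at the lowest dose. CYP1A2 had slopes of -0.05 ± 0.07 and -0.03 ± 0.07 (adjusted p = 0.716 and 0.847). With the lowest, the middle or the top dose left out of each series, limma called no gene with either agent, while 1620 to 2856 genes of either direction had an unadjusted p under 0.05, so that loss was common to all genes. The TIPARP slope lay between 0.76 and 1.27 with EEDS and between 0.60 and 1.11 with helveticoside over all alternatives run.

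**Figure D3:**
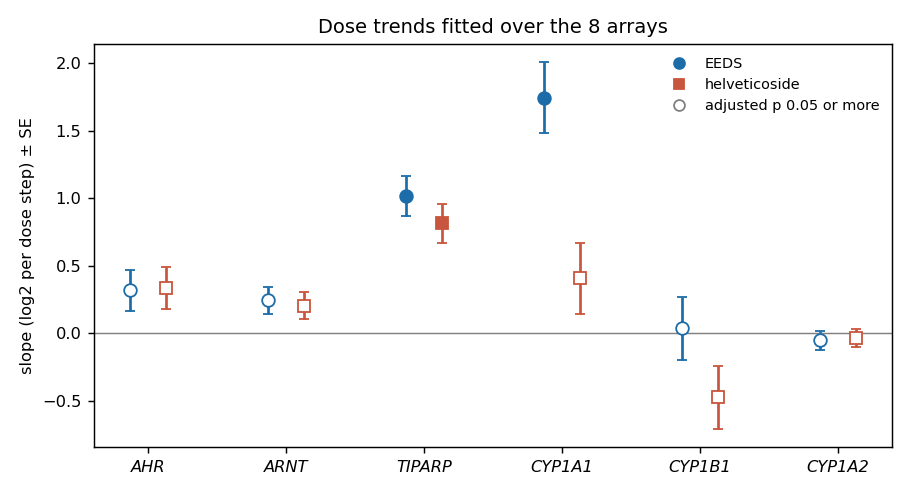
Slope of the log2 level per dose step with its standard error (vertical axis) for each of the 6 genes with EEDS (circles) and helveticoside (squares), from the limma fit over the 8 arrays. Filled symbols have an adjusted p under 0.05: TIPARP with both agents and CYP1A1 with EEDS.

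The extract was set against the pure glycoside by the difference of these slopes per dose step, since the doses were in different units and were not matched. No gene of the 6 differed after adjustment. None of all 19046 genes did either in limma, with or without its trend and robust options, while 525 (2.76%) had an unadjusted p under 0.05. CYP1A1 was among these 525, and among the 1.3% of all genes whose EEDS slope was the higher at that level, with an EEDS slope higher by 1.33 ± 0.37 (95% interval 0.41 to 2.26, limma unadjusted p = 0.0132, adjusted p = 1). That value rests on signals that were not well above background on 5 of the 8 arrays, both vehicle controls among them, and the difference ranged from 0.48 to 1.86 over the alternatives. The interval of the difference was -0.31 to 0.72 for TIPARP, -0.56 to 0.52 for AHR, -0.31 to 0.39 for ARNT and -0.26 to 0.22 for CYP1A2. For CYP1B1 it was -0.31 to 1.33 around a value of 0.51. Beside the slopes themselves these intervals are wide for AHR, ARNT, CYP1A2 and CYP1B1, and take in differences as large as the slopes. At the top doses, 1.78% of genes well above background had an EEDS ratio over 2-fold above that of helveticoside and 1.22% one over 2-fold below it, and CYP1B1 was 1 of 210 such genes among 11818.

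The other genes of the pathway were taken from 6 lists with 54 symbols, of which 52 were on the array and 7 were not well above background on any array. At 20 μg/mL EEDS, 9 of them were over 2-fold higher and 5 lower, beside 11.4% and 12.4% of all genes. At 60 nM helveticoside, 8 were higher and 6 lower, beside 7.91% and 9.74%. By limma, 6 rose and 1 fell with EEDS, beside 7.27% and 7.85% of all genes, and 3 rose and 2 fell with helveticoside, beside 5.48% and 5.8%.

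In the cytoplasmic complex that holds the receptor, both HSP90 genes were lower at the middle and top doses. HSP90AB1 had log2 ratios of -0.99, -1.74 and -1.46 with EEDS and of -0.33, -1.65 and -1.57 with helveticoside. HSP90AA1 had -0.57, -1.38 and -1.17, and -0.27, -1.73 and -1.54. Their slopes missed the threshold, with limma adjusted p of 0.0988 and 0.0798 for HSP90AB1 and of 0.125 and 0.0678 for HSP90AA1. For both genes the ratios at the middle and top doses lay close together, and their order is not settled with 1 array each. The level of AHR at the middle dose was still near its vehicle control. PTGES3, which encodes p23, was within 2-fold of its controls at the top doses, with log2 ratios of -0.38 and -0.17.

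Among 8 further partners of the ARNT and PAS family, BMAL1, an ARNT relative of the circadian clock, rose with both agents. Its log2 ratios at the top doses were 0.97 and 0.90 (limma adjusted p = 0.0264 and 0.0371). ARNT2, another ARNT relative, was lower than its vehicle control at every dose, with log2 ratios of -0.94 and -0.91 at the top doses. The slopes of ARNT2 missed the threshold. SIM1 was 1.18 at the top dose of EEDS and had a bound of 1.19 with helveticoside, and its slopes missed the threshold. It was well above background on 6 of the 8 arrays. Its level with the EEDS vehicle, 4.68, was near the lowest signal well above background on that array, 4.55.

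Of 11 coregulators, 5 were over 2-fold higher at 20 μg/mL EEDS and 4 at 60 nM helveticoside, beside 11.4% and 7.91% of all genes, and none was lower, beside 12.4% and 9.74%. RELB, an NF-kappa B subunit that can pair with AHR, rose with both agents (limma adjusted p = 0.00721 and 0.0147). Its log2 ratios were 0.96 and 1.93 at the lower doses of EEDS, with 8.01-fold at 20 μg/mL, and 0.96, 2.01 and 2.72 with helveticoside. The remodelling ATPase SMARCA4, at 4.01-fold, the mediator subunit MED1, at a log2 ratio of 1.51, and the acetyltransferase EP300, at 1.17, rose with EEDS (limma adjusted p = 0.0201, 0.0297 and 0.0431). With helveticoside these 3 stood at 1.08, 0.99 and 1.10, and their slopes missed the threshold. KLF6, a zinc finger factor that AHR can bind, had log2 ratios of 2.76 and 1.78 at the top doses with adjusted p of 0.0816 and 0.220. In KLF6 as in AHR, most of the difference came at the last step, from 0.52 to 2.76 with EEDS and from 0.36 to 1.78 with helveticoside.

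Of 9 enzymes that form or remove kynurenine-type ligands, 5 were well above background on all arrays. The kynurenine aminotransferase genes stood on opposite sides of their controls. KYAT1 had log2 ratios of 1.21 and 1.64 at the top doses and KYAT3 of -1.47 and -1.18, and no slope passed the test.

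Of 18 further target genes, 16 were on the array and 5 of those were not well above background on any array. EREG, an EGF-receptor ligand, rose with log2 ratios of 1.95, 3.09 and 4.06 with EEDS and of 1.23, 2.57 and 3.50 with helveticoside (limma adjusted p = 0.0131 and 0.0165). CYP2S1, another monooxygenase of the list, fell to -1.45 and -1.28 at the top doses (limma adjusted p = 0.0200 and 0.0304). NQO1, a quinone reductase often used as a readout of both AHR and NRF2, stood at -0.41 and -0.68, and ALDH3A1, an aldehyde dehydrogenase, at -0.99 and -1.78, with no slope past the threshold. The amino acid transporter gene SLC7A5 stood at 0.92 and 1.47, from vehicle levels of 14.33 in the EEDS series and 13.42 in the helveticoside series. The genes of this list thus did not share a direction. Their median log2 ratio, with the dim genes at their measured values, was -0.20 at 20 μg/mL EEDS and -0.05 at 60 nM helveticoside.

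Among 5 PARP relatives of TIPARP, none was over 2-fold higher at any dose, beside 1.24% to 11.4% of all genes, by dose. ZC3HAV1, an antiviral zinc finger member of that family, had log2 ratios of -1.86 and -1.23 at the top doses, with no call. PARP1 fell with helveticoside, with a log2 ratio of -0.72 at 60 nM (limma adjusted p = 0.0479), and stood at -0.43 at 20 μg/mL EEDS. Its log2 level was 11.83 with the vehicle of the EEDS series and 13.03 with that of the helveticoside series. The level at 60 nM, 12.31, was thus above the EEDS vehicle.

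Of the 5 epithelial markers, limma called 4 falling with EEDS (KRT8, KRT18, KRT19 and CDH1), beside 7.85% of all genes. With helveticoside it called 3 falling (the same without KRT8), beside 5.8%. CDH1 had log2 ratios of -2.70 and -2.71 at the top doses. EPCAM stood at 0.05 and -0.26, with no call. ABCA3, the alveolar type II marker well above background on every array, fell to -3.18 and -3.03 (limma adjusted p = 0.0145 and 0.0185). SFTPA1, another of that list of 7 genes, was called rising with helveticoside, with a slope of 0.42 a step (limma adjusted p = 0.0390). SFTPA1 was not well above background on any array. With dim genes at their measured values, the list's median log2 ratio at the top doses was -0.0024 with EEDS and 0.0 with helveticoside. All 8 housekeeping genes stayed within 2-fold at every dose. The part of these markers in the values of TIPARP, CYP1A1 and AHR was not tested.

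**Figure D4:**
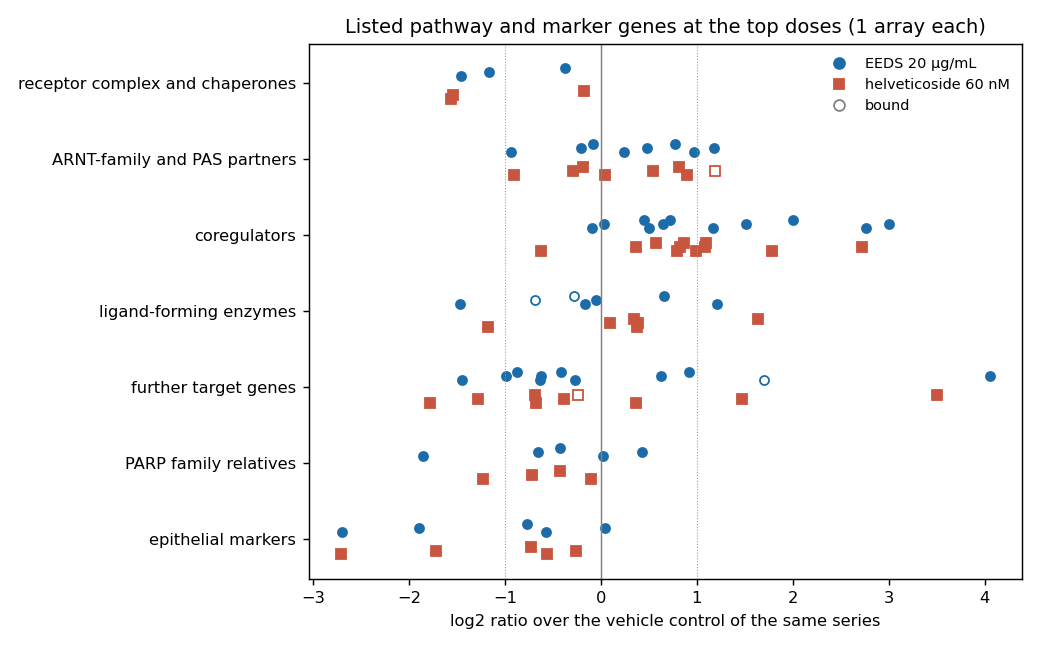
Log2 ratio over the vehicle control of the same series (horizontal axis) at 20 μg/mL EEDS (circles) and 60 nM helveticoside (squares) for the listed genes well above background on at least 1 of the arrays compared, by list (vertical axis), with open symbols for bounds and dotted lines at 2-fold. No coregulator is over 2-fold lower, both HSP90 genes of the receptor complex are, and the further target genes reach from CYP2S1 and ALDH3A1 to EREG at 4.06 and 3.50.

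For each of the 6 genes, the pair of genes with the most similar course was sought among those well above background on all 8 arrays, by Pearson's r over the 8 log2 levels after each series was centred on its own mean. The points share the arrays and their normalization, and among 11493 genes a high r is found for most shapes, so these are descriptions. TIPARP went with KCTD5 (r = 0.999) and FBXO31 (0.998), AHR with MRPS22 (0.996) and NOLC1 (0.995), and ARNT with OPA3 (0.997) and SPRY2 (0.992). CYP1A1 went with CACTIN (0.990) and MRGPRF (0.980), CYP1A2 with SYNE1 (0.997) and POT1 (0.964), and CYP1B1 with SWI5 (0.961) and DMAC2 (0.945). None of the 6 genes had another of the 6 as its nearest, but CYP1A1 was not among the genes searched. With so many genes searched, this cannot show whether the 6 moved together. MRGPRF shared with CYP1A1 a larger log2 ratio at the top dose of EEDS, 1.79, than of helveticoside, 0.32. SPRY2, a feedback inhibitor of receptor tyrosine kinase signalling, stood at 1.38 and 1.03.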

How the data were processed

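Per the labels, the 8 arrays were mapped by agent and dose, 1 array for each of 4 conditions in 2 series. For every spot, the authors deposited intensity as read by the scanner software (processed, median and local background signal, with its error), and also a value table of linear intensity, which from its values is the median minus the background signal, quantile-normalized in each series separately. The tool version of the scanner software is not given in the sources used here. Outlier spots were dropped. Processed signals were averaged per probe (34105 probes), quantile-normalized over the 8 arrays and put on the log2 scale, so that a log2 ratio is treated minus vehicle. Probes were named through RefSeq accessions of GRCh38.p14 (24812 probes, 19056 genes, of which 19046 were tested), with the probe of highest mean signal for each gene. AHRR, UGT1A1 and GSTA1 were not matched. Slopes came from limma 3.58.1 under R 4.3.3, with its trend and robust options (statmod 1.5.0) and 4 residual degrees of freedom, a script tested on simulated data. Other values came from Python 3.11.15, numpy 2.4.6, pandas 2.3.3, scipy 1.17.1 and matplotlib 3.10.9.

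The genes described and the lists were chosen with earlier results of these data known. Named were all listed genes and, from each pathway list, up to 4 detected genes past 2-fold at a top dose or called by limma with the largest ratios, plus NQO1, ALDH3A1 and HSP90AB1, and for each member the 2 genes of highest correlation. The value of 1 list gene is not reported here. PTGES3, ARNT2, EP300, ABCA3, SFTPA1 and the epithelial markers were named after their values were seen. Alternatives covered the normalization, background correction, filters, probe choice, value table, control array, dose scale and arrays in the fit. Each dose had 1 array, so single doses carry no p-value, and precision is limited by how few arrays there were.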

Additional observations from a re-analysis of the deposited data

How the results depend on the processing

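No paired analysis was possible because each condition held 1 array. No member's slope reversed its direction past a threshold under any alternative. The TIPARP slopes lost their calls in 5 of 16 alternatives each (without the lowest, the middle or the top dose, with 1 series alone, and on log2 dose over the treated arrays), and ranged from 0.76 to 1.27 with EEDS and from 0.60 to 1.11 with helveticoside. CYP1A1 lost its EEDS call in 6 of 14, the same 5 and the common detection floor, which was chosen after the data were seen. Under those 5 settings, each with fewer arrays, the counts of genes called rising or falling were 0 for both agents, with 1620 to 2856 genes of either direction at an unadjusted p under 0.05. On the value table of the authors, the falling count with EEDS was 2622 in place of 1495, and with helveticoside at 60 nM 982 genes were over 2-fold higher and 1163 lower in place of 1506 and 1856. Of the 6 genes, 1 was over 2-fold higher at the top dose of EEDS where only genes well above background on every array of a series or on all arrays were kept, since CYP1A1 was then left out, 3 were with 75th percentile scaling, with normexp and with the mean of all probes, and 4 against the other series' vehicle control. At the top dose of helveticoside, 1 was over 2-fold higher with the signal as scanned, with normexp and on the value table, where AHR came just short of 2-fold, 3 were with the mean of all probes and with measured values in place of bounds, and 0 were over 2-fold lower against the other series' vehicle control. The lower bound of CYP1A1 at 20 μg/mL EEDS was 1.98 (log2) with the signal as scanned and 3.38 on the value table, in place of 3.86, so its size depends on how the background was treated. The signal over background on the helveticoside arrays limits what can be said of CYP1A1 there.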
